A study of Zea mays with 6 samples.

Results

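Plasma membrane aquaporins are membrane proteins of the PIP family that let water cross the cell's outer membrane. They fall into the subgroups PIP1 and PIP2. In maize, PIP2 proteins form efficient water channels on their own, whereas PIP1 proteins reach the plasma membrane in quantity when they assemble with PIP2 partners. Anthers lose water before they open and shed pollen, and the genes mutated in this study are tied to anther opening by its title. The set examined here was defined by 5 gene identifiers, listed as PIP2-1, PIP2-2, PIP2-5, PIP2-6 and PIP1-1. The files hold values for 31470 genes. Of the 5, the identifiers listed as PIP2-2 (Zm00001d005410), PIP2-5 (Zm00001d003006) and PIP2-6 (Zm00001d019563) have values here. Those listed as PIP2-1 (Zm00001d014285) and PIP1-1 (Zm00001d017526) have no values here, so they could not be analysed.

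RNA from mature anthers of the maize inbred line B104 was sequenced in 6 libraries. In 3 of them the plants were wild type, and in 3 the genotype was ZmCOI2a-/-, ZmCOI2b-/-, a double mutant in 2 genes of the COI family of jasmonate receptors. The sources used here do not give the kind of allele, the number of plants per library or any treatment. The comparison asks whether transcripts of the water channels differ between anthers with and without both COI2 genes. The unit is FPKM, a read count scaled to gene length and library depth, so levels may be compared between genes on this scale.

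The genotypes separated on the first principal component of all tested genes, with 52.8% of the variance, and mutant replicate 3 lay nearest to wild type among the mutant libraries (at -21.9, against -42.9 and -46.3). Library totals, recovered from the values, were between 16845656 and 17759978 reads. Reads recovered gene by gene made up 99.6% of each, so these totals stand for reads counted in genes, not all reads sequenced. Of 18984 tested genes, 1262 were called changed (6.65%) and 901 of these were lower in the mutant (4.75%), by limma at a Benjamini-Hochberg adjusted p under 0.05. The balance turned with the scaling, to 661 higher and 410 lower under median of ratios and 585 higher and 500 lower under the upper quartile. Removing mutant replicate 2 left 50 calls, removing mutant replicate 1 left 54 and removing mutant replicate 3 left 840. The counts were 409 and 490 with wild-type replicate 1 or 2 removed, and rose to 1373 with wild-type replicate 3 removed. The median log2 fold change of all tested genes was -0.20 with FPKM as deposited and 0.03 after median-of-ratios scaling. Fold changes below with FPKM as deposited include that shift, unless given relative to the median. The targeted genes and markers of the anther's tissues could not be checked, since the files pair no identifier with a gene name. Whether the libraries of a genotype stem from different plants is not stated in the labels, so every p-value here reflects variation among these 6 libraries and part of it may be technical.

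The listed names were checked against the RefSeq gene table of another B73 assembly (Zm-B73-REFERENCE-NAM-5.0). For PIP2-5, the entry of that name lies on the same chromosome as Zm00001d003006 and has a similar span, 2220 bp against 2245 bp. For PIP2-2, the chromosome was the same but the spans were 3310 bp in RefSeq and 1368 bp for Zm00001d005410. For PIP2-6, the chromosome was again the same, but the RefSeq entry spans 1460 bp and Zm00001d019563 spans 3167 bp. The RefSeq entry of PIP2-1 lies on that same chromosome, with 2 other genes between it and PIP2-6, and spans 3020 bp. The span of Zm00001d019563 is closer to that of the PIP2-1 entry than to that of the PIP2-6 entry. The identifiers listed as PIP2-1 and PIP1-1 have their 6 nearest numbered neighbours on a single chromosome, which in neither case is that of the RefSeq entry of that name. The name PIP2-6 is therefore not settled for Zm00001d019563, nor are those of the identifiers listed as PIP2-1, PIP1-1 and PIP2-2, and the genes are called by identifier below.

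Zm00001d019563 was the abundant member. It lies on the minus strand of chromosome 7, from 42951695 to 42954861 on B73 RefGen_v4, and reads were counted over 1317 bp of its span. Its FPKM was 244, 181 and 325 in wild-type replicates 1, 2 and 3, and 133, 102 and 187 in mutant replicates 1, 2 and 3. Wild-type replicate 3 was the highest library and mutant replicate 2 the lowest, and the genotypes overlapped in 1 place, with mutant replicate 3 slightly above wild-type replicate 2. In 8 of the 9 pairs of a mutant and a wild-type library the mutant library was lower.

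**Figure D1:**
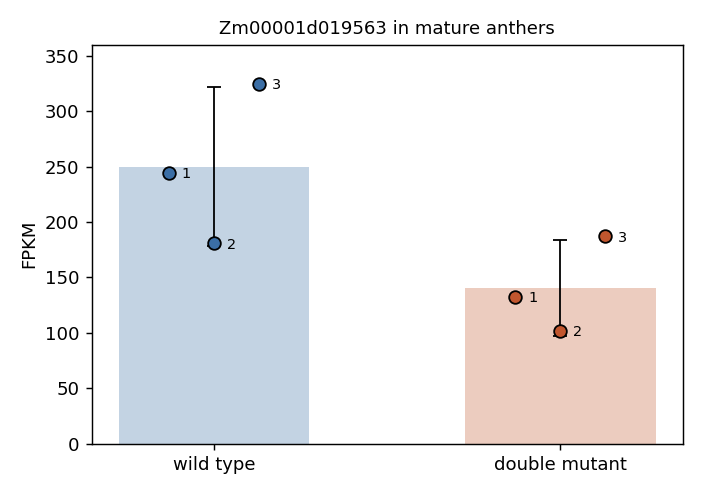
FPKM (vertical axis) of Zm00001d019563 in wild-type and double-mutant anthers. Points are libraries with their replicate numbers, bars are group means and error bars are SD (n = 3 each). The mutant mean of 141 lies below the wild-type mean of 249.9, and mutant replicate 3 at 187 lies above wild-type replicate 2 at 181.

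The mean was 249.9 ± 72.0 FPKM in wild type and 140.6 ± 43.3 FPKM in the mutant (SD, n = 3 each), so the mutant mean was 56.2% of the wild-type mean. The log2 fold change was -0.83 on the log2(FPKM + 1) scale, with a 95% interval of -1.49 to -0.17 for this gene alone. It did not pass the threshold over all tested genes (limma unadjusted p = 0.0203, adjusted p = 0.110). An unadjusted p under 0.05 was common here, with 28.5% of tested genes. An exact permutation test of the same difference over the 6 libraries gave p = 0.2 (two-sided), where the smallest p this design allows is 0.1. In bulk anthers, fewer cells that contain a transcript and less of it per cell cannot be told apart.

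Relative to the median of all tested genes, the log2 fold change of Zm00001d019563 was -0.63. Among tested genes, 6.39% had a lower log2 fold change. Among the 953 tested genes with a mean of at least 100 FPKM, 4.30% had a lower one, and the median log2 fold change of these abundant genes was 0.096. Of these 953 genes, 25 were called lower and 13 higher in the mutant. Zm00001d019563 thus stood in the low tail of the abundant genes without being among those called, as the plot of all tested genes shows.

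**Figure D2:**
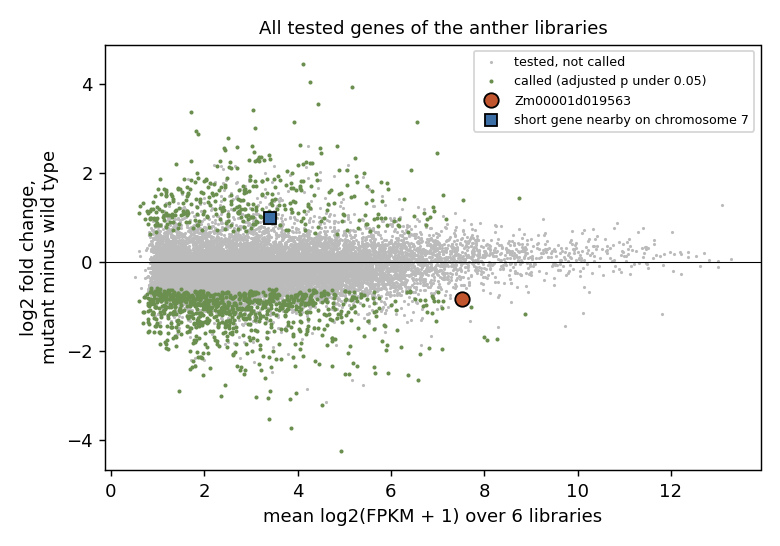
Log2 fold change (mutant minus wild type, vertical axis) against mean log2(FPKM + 1) over the 6 libraries (horizontal axis) for all 18984 tested genes. Green points passed an adjusted p under 0.05. Zm00001d019563 (orange circle) lies at -0.83 and a shorter gene nearby on chromosome 7 (blue square) at 0.97, and neither passed.

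After median-of-ratios scaling of the libraries, the values of Zm00001d019563 were 240, 165 and 270 FPKM in wild-type replicates 1, 2 and 3 and 141, 119 and 202 in mutant replicates 1, 2 and 3. The overlap between mutant replicate 3 and wild-type replicate 2 was wider on this scale. The log2 fold change became -0.55, with a 95% interval of -1.18 to 0.078 that includes 0 (limma adjusted p = 0.263). The median of all tested genes moved from -0.20 to 0.03 with the same scaling. Among libraries left out in turn, leaving out mutant replicate 3 gave -1.06 and leaving out mutant replicate 2 gave -0.62, and the gene was not called in any of the 14 alternative settings (limma adjusted p from 0.0824 to 0.339).

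**Figure D3:**
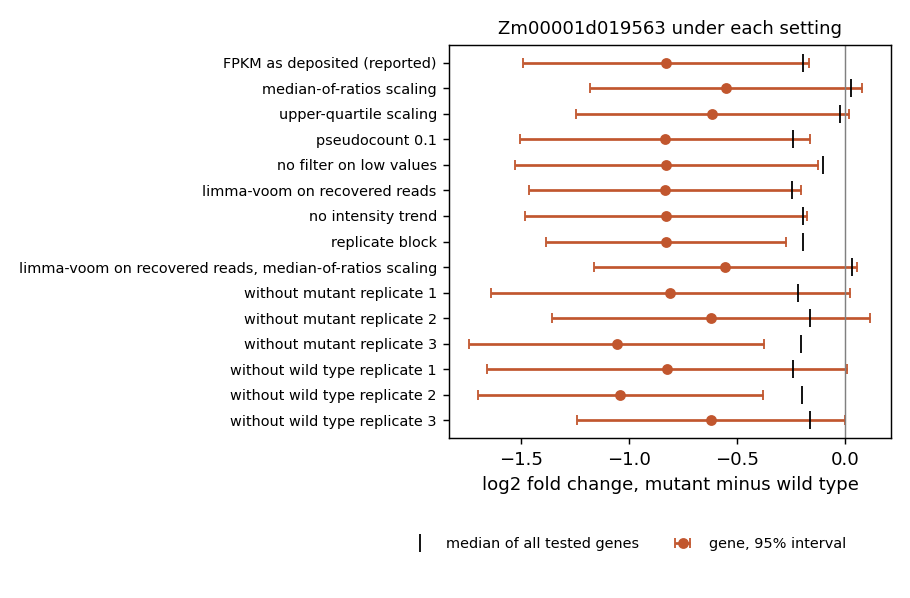
Log2 fold change of Zm00001d019563 (mutant minus wild type, horizontal axis) under the reported setting and 14 alternatives, with 95% intervals for this gene alone. Black ticks mark the median of all genes tested in that setting. Every estimate lies below 0, between -1.06 and -0.55, and the interval includes 0 in 6 of the 14 alternatives.

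The spread of Zm00001d019563 within a genotype was far above counting error. Its reads were 5563, 4011 and 7537 in wild-type replicates 1, 2 and 3 and 3074, 2353 and 4379 in mutant replicates 1, 2 and 3. The SD between replicates was 28.8% of the mean in wild type and 30.8% in the mutant, against a counting error of 2.06% for the library with the fewest reads. The highest library held 1.80 times the FPKM of the lowest in wild type and 1.84 times in the mutant. Recovered reads have a caveat for this gene, since its counted length fits 2 times into the span: the true reads could be 2 times those given if all 6 were even.

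Among all genes, Zm00001d019563 ranked between 324 and 503 from the top in the wild-type libraries and between 497 and 941 in the mutant libraries. It took 0.0238 to 0.0427% of the recovered library totals in wild type and 0.0134 to 0.0247% in the mutant. In every library at least 97.0% of the listed genes had a lower FPKM. It held at least 99.9% of the summed FPKM of the analysed members in each library.

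Zm00001d003006, listed as PIP2-5, was hardly read. It lies on the minus strand of chromosome 2, from 29275928 to 29278172, and was counted over 1219 bp. In maize, PIP2-5 is known as a water channel of roots. Reads were 2, 2 and 0 in wild-type replicates 1, 2 and 3 and 0, 1 and 0 in mutant replicates 1, 2 and 3. These correspond to at most 0.0974 FPKM. The depth-corrected ratio of wild type to mutant was 4.09 with a 95% exact counting interval of 0.405 to 201, so no difference was detectable at this depth. With no filter on low values its log2 fold change was -0.066 (limma adjusted p = 0.490).

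Zm00001d005410, listed as PIP2-2, was hardly read either, and its order against Zm00001d003006 was not resolved. It lies on the plus strand of chromosome 2, from 173113628 to 173114995, and was counted over 1149 bp. A single read was counted in wild-type replicate 3 and a single read in mutant replicate 3, at 0.0494 and 0.0490 FPKM, and the other 4 libraries had 0. A library with 0 reads allows up to 0.155 FPKM, the level of 3 reads in the shallowest library. The ratio of wild type to mutant was 1.02 with a counting interval of 0.0130 to 80.2. With no filter its log2 fold change was -0.00016 (limma unadjusted p = 0.997), which rests on 2 reads. PIP2 genes can be close copies of each other, and the treatment of reads that match several copies is not stated. The gene positions are those of a B73 build while the anthers were B104, and any effect of this on the counts was not tested.

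**Figure D4:**
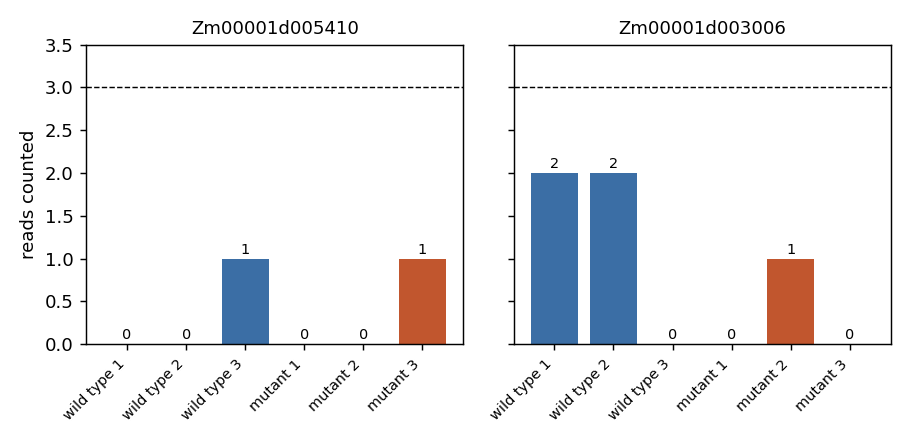
Reads counted (vertical axis) in each of the 6 libraries for Zm00001d005410 and Zm00001d003006, wild type in blue and double mutant in orange. The dashed line marks 3 reads, the floor used for a library with 0 reads, and every library lies below it, with at most 2 reads.

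The order of the levels was the same at the top in all libraries, with Zm00001d019563 first by a wide margin. Over the 6 libraries together, Zm00001d019563 stood at 195.3 FPKM, Zm00001d003006 at 0.0392 FPKM (95% counting interval 0.0127 to 0.0915) and Zm00001d005410 at 0.0166 FPKM (0.0020 to 0.0601). The first exceeded the second by 4983 times (counting interval 2135 to 15346) and the third by 11742 times (3250 to 96955). These ratios are of counted reads, and their intervals do not cover the unstated treatment of reads that match several copies. The intervals of Zm00001d003006 and Zm00001d005410 overlap, so their order was not resolved. Both failed the filter on low values, which asked for 1 FPKM or more in 3 or more libraries, and only Zm00001d019563 of the 5 listed identifiers was tested. Each had 1 read in the mutant group, against 4 reads in wild type for Zm00001d003006 and 1 for Zm00001d005410.

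A shorter gene near Zm00001d019563 was sought after values had been seen, because the names were not settled. Within 200 kb, 1 listed gene had a span within 5% of that of the RefSeq entry of PIP2-6. It lies on the same strand of chromosome 7, from 43071903 to 43073370, and spans 1468 bp. Its start lies 120208 bp from that of Zm00001d019563, against 120124 bp between the RefSeq starts of PIP2-1 and PIP2-6. This is a likeness of spacing between assemblies, not an annotation, and no name is given to the gene here.

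That shorter gene had 9.74, 2.96 and 9.24 FPKM in wild-type replicates 1, 2 and 3 and 22.0, 10.5 and 11.4 FPKM in mutant replicates 1, 2 and 3. Every mutant library lay above every wild-type library, with wild-type replicate 2 lowest and mutant replicate 1 highest. A separation in this direction was met in 7.27% of tested genes. The mutant mean was 14.7 ± 6.4 FPKM and the wild-type mean 7.31 ± 3.78 FPKM (SD, n = 3 each). Its log2 fold change of 0.97 (95% interval 0.0018 to 1.94) did not pass the threshold (limma adjusted p = 0.175). In the 14 alternatives the log2 fold change ran from 0.50 (wild-type replicate 2 removed) to 1.38 (voom after median-of-ratios scaling), was 0.66 with mutant replicate 1 removed, and was called in none (limma adjusted p from 0.0936 to 0.404).

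The ratio of both genes within a library does not depend on how libraries are scaled. Zm00001d019563 had 25.1, 61.2 and 35.1 times the FPKM of the shorter gene in wild-type replicates 1, 2 and 3. In mutant replicates 1, 2 and 3 it had 6.03, 9.70 and 16.4 times. The genotypes did not overlap in this ratio, which is given as a description because the shorter gene was chosen after its values were seen. The shorter gene on its own already separated the genotypes, and no share of gene pairs with a separated ratio was computed. The ratio thus has no background share here. Zm00001d019563 on its own did not separate the genotypes. With FPKM as deposited, 28.6% of single tested genes had every mutant library below every wild-type library, which is no baseline for a ratio.

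No gene listed in the files overlapped any of the analysed members. Genes without a row were not considered. The gene to the left of Zm00001d019563 (chromosome 7, 42852760 to 42855296, plus strand) lies 96398 bp away. It had 7.54, 10.5 and 9.21 FPKM in wild-type replicates 1, 2 and 3 and 5.04, 5.19 and 4.95 FPKM in mutant replicates 1, 2 and 3. It was called lower in the mutant (log2 fold change -0.72, limma adjusted p = 0.0453), but the call was lost in 11 of 14 alternatives, among them median-of-ratios scaling (-0.48, adjusted p = 0.118) and each library left out. The gene to the right (chromosome 7, 43000808 to 43001430) was at 0.531 to 1.40 FPKM in wild type and 0.382 to 1.14 FPKM in the mutant and did not pass (limma adjusted p = 0.671). Of the neighbours of the low members, the gene to the left of Zm00001d003006 (chromosome 2, 29268895 to 29269239) was the only one tested, at 3.59 to 11.2 FPKM (limma adjusted p = 0.400).

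Among 10603 other tested genes with a mean of at least 5 FPKM, the gene whose log2(FPKM + 1) followed that of Zm00001d019563 most closely lies on chromosome 10 (114734216 to 114741281, minus strand). Pearson's r was 0.984 over the 6 libraries, which share depth and scaling. It had 6.63, 6.11 and 7.06 FPKM in wild-type replicates 1, 2 and 3 and 5.63, 5.17 and 5.86 FPKM in mutant replicates 1, 2 and 3. Its order of libraries was that of Zm00001d019563 except at the overlap of mutant replicate 3 and wild-type replicate 2. Its log2 fold change was -0.21 (limma adjusted p = 0.383), close to the median of all tested genes at -0.20, and its sign turned to 0.026 after median-of-ratios scaling. An r of at least 0.95 was reached by 78 of the 10603 genes (0.736%). The lowest r among them was -0.991, so a gene of opposite pattern had an r of larger size.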

How the data were processed

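RNA-seq libraries of mature B104 anthers were taken in the groups given by their labels, 3 wild type and 3 double mutant. The deposited values are FPKM made by the authors, 1 value per gene and library, with gene positions, per the file headers. The build B73 RefGen_v4 and the tools HTSeq 0.6.0, HISAT2 2.1.0 and Bowtie2 2.2.3 are named, without roles, in the submitters' processing notes. The strand setting, filters and handling of reads that match several places are not stated there.

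Library totals and whole reads were computed back from FPKM for 31465 of 31470 genes, within 0.0001 reads plus 3e-09 per read, which accounts for 99.6% of each total. The genotype contrast was fitted by limma (version 3.58.1, R 4.3.3) to log2(FPKM + 1), using an intensity trend without covariates, on genes that reached 1 FPKM in 3 or more libraries. Adjusted p-values (Benjamini-Hochberg) cover all 18984 tested genes, and a call means an adjusted p under 0.05. The script was tested on simulated counts without a shift over all genes, so that test does not show how it performs on these libraries. Counting intervals are exact (Poisson for levels, binomial for ratios, 95%) and, like the floors of 3 reads, cover counting error only.

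Members and lists were chosen with earlier results of these data known. The rule for named genes took all members, their next listed neighbours and, for a tested member, the gene of highest Pearson r. Of 30950 identifiers beginning with Zm00001d, 0 matched a RefSeq name, so other aquaporins (30 RefSeq entries) were not analysed here and no sequence is shown. Alternatives were other scalings, a pseudocount of 0.1, no filter, limma-voom, no trend, a replicate block and leaving out each library.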

Additional observations from a re-analysis of the deposited data

How the results depend on the processing

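The log2 fold change of Zm00001d019563 stayed below 0 and uncalled in all 14 alternatives, from -1.06 to -0.55. The voom fit with median-of-ratios scaling was chosen after seeing the data. Leaving out single libraries gave a lowest value of -1.06 (mutant replicate 3 removed) and a highest of -0.62 (mutant replicate 2 removed). The replicate block left it at -0.83 (limma adjusted p = 0.103) and gave 715 changed genes, 468 of them lower. Same-numbered libraries did not deviate together over all genes (correlations 0.012, -0.38 and -0.33), so the numbers were not taken as pairs.

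Counts over all genes moved more, from 1262 changed, 361 higher and 901 lower. No filter gave 292, 125 and 167. Median-of-ratios scaling gave 661 higher and 410 lower, upper-quartile scaling 585 and 500, and that first scaling under voom 679 and 387, since these scalings shift all fold changes. Leaving out 1 library gave 50 to 1373 changed, 25 to 634 higher and 24 to 739 lower. The gene of most similar pattern turned to 0.026 under median-of-ratios scaling and to 0.031 when voom was added. The right-hand neighbour of Zm00001d019563 ran from -0.37 to 0.029 with 1 library left out. For the last the cause was not tested. Depth was not varied. Leaving out a library also made its group smaller, and the effect of group size apart from the library removed was not tested. The low members had at most 2 reads in a library, so their counting intervals are wide.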
